A study of Homo sapiens with 9 samples.

Results

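The enzymes that add or remove methyl groups on histone lysines, other than LSD1 itself, were followed in mesothelioma cells that carried hairpins against LSD1. The set was a list of 43 genes, 27 SET-type or DOT1L-type methyltransferases and 16 JmjC demethylases, taken by gene symbol. It was drawn up with earlier results of these data known. A named transcript cluster was found for 41 of them among the 17687 named genes of the array, and no named cluster was found for SETD1B and ASH1L, which are not analysed here. The question put to them was whether the transcripts of other methylation enzymes move when LSD1 is targeted.

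All samples were of 1 established human cell line, ACC-MESO-1, which derives from a malignant mesothelioma, a cancer of the pleura. The labels name no agent besides the shRNAs. Its cells were infected with a control shRNA (arrays 1 to 3), with shLSD1 #1 (arrays 4 to 6) or with shLSD1 #2 (arrays 7 to 9), and total RNA was hybridised to 9 Clariom S arrays. The labels do not give the hairpin sequences, the time after infection, or whether the cells of a group were selected, pooled or cloned. Whether the arrays of a group came from separate cultures is also not said, and p-values then express only how far these arrays spread, which may be technical. The transcript of LSD1 is not analysed here, so the extent of its suppression was not checked.

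As background, histone lysine methylation marks the state of a stretch of chromatin. Methylation of H3K4 accompanies active promoters and enhancers, that of H3K36 and H3K79 accompanies transcribed gene bodies, and that of H3K9, H3K27 and H4K20 accompanies silenced or compacted chromatin. Methyltransferases of the SET family, and DOT1L, which has another fold, take the methyl group from S-adenosylmethionine. JmjC demethylases remove it with iron and 2-oxoglutarate, whereas LSD1 uses a flavin and acts on monomethylated and dimethylated H3K4, and in some settings on H3K9. The KDM5 family removes H3K4 methylation by the JmjC route and so shares a substrate with LSD1.

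Values are log2 signals, 1 per transcript cluster, so a difference of 1 is a doubling. Array medians over 21448 clusters lay between 6.39 and 6.43. The level of the negative controls was set at the 95th percentile of 612 negative control probe sets, separately for every array (6.93 to 7.54). Hybridization spike-ins, which are not cell transcripts, were brighter (11.2 to 11.4) on the control arrays and on shLSD1 #2 replicates 7 and 9 than on the shLSD1 #1 arrays and shLSD1 #2 replicate 8 (10.8 to 10.9). This class of spike-in signal runs with shLSD1 #1, and its part in the shLSD1 #1 results cannot be told apart from the hairpin except through the single low array of shLSD1 #2. A fit with spike-in class as a blocking factor therefore rests on replicate 8, and shifts shLSD1 #1 changes by that array's distance from replicates 7 and 9. For shLSD1 #2 it is the same as leaving replicate 8 out. The arrays of high spike-in signal give that same change, so these are not separate checks. Of 11 mesothelial markers, 7 were above the negative controls in a group, MSLN, KRT8, KRT18 and VIM among them, whereas CALB2 and KRT5 lay below on all 9 arrays. The 10 markers of blood, endothelial and lung epithelial cells that were on the array lay below on all 9. With both hairpins MSLN fell (by 0.85 and 0.95), while UPK3B and WT1, both under the negative controls in the control group, were higher (limma, adjusted p between 0.00325 and 0.0304), and the part of these shifts in the results was not tested.

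Most of the enzymes were detectably transcribed. Of the 41, 29 were above the negative controls on all 9 arrays, 20 of them methyltransferases and 9 demethylases. The 7 that lay below on every array were the H3K4 methyltransferase KMT2B and the demethylases KDM8, KDM3A, KDM4B, KDM4D, KDM7A and PHF8. Their signals ran together with those of the negative controls, so no size of change is given for them in the text, and the plotted values of these genes describe background signal. The remaining 5 were above on some arrays. Among these SETDB2, EZH1 and DOT1L were below on all 3 control arrays and above on 2 or 3 arrays of each hairpin, while KMT5C and KDM4C were above on 8 arrays each.

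With shLSD1 #1, 6 of the 41 genes rose and 3 fell at an adjusted p under 0.05 (limma), a share of 22.0%, where the array as a whole had 15.8% of clusters called, 7.85% higher and 7.94% lower. Among the clusters above the negative controls in any group the share was 28.6%. The members' 22.0% is over all 41, of which 34 were above the negative controls in any group, so these shares are not like for like. The genes that rose were the methyltransferases SMYD3, SUV39H2, SETD1A, EZH1, SETD2 and DOT1L. The genes that fell were the methyltransferase SETD7 and the demethylases KDM4A and KDM7A, the last with a signal below the negative controls. SMYD3 passed both the test and a 2-fold change with each hairpin, where 3.81% and 3.33% of all clusters did. DOT1L did so with shLSD1 #1 by its fitted value, but its control arrays lay below the negative controls and the bound was under 2-fold. In a bulk extract, a change in every cell and a change in the share of cells that transcribe a gene cannot be told apart.

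With shLSD1 #2, 3 members rose and 3 fell, a share of 14.6% against 13.2% of all clusters (6.56% higher, 6.63% lower) and 24.4% of the clusters above the negative controls in any group. The 14.6% is again over all 41 members, those below the negative controls included. SMYD3 and SUV39H2 rose, and so did KDM4B, whose signal lay below the negative controls. KMT2D, KDM2A and KDM7A fell. Both comparisons use the same 3 control arrays, so their values are set side by side below and not counted as separate support. The median change over the 41 members was 0.18 with shLSD1 #1 and -0.026 with shLSD1 #2, where all clusters had 0.030 and 0.022. With every value raised to 7.25, the mean negative control level, the members' medians were 0.041 and -0.0060. Raising leaves no change in a gene below that level on every array, and no raised median of all clusters is given here. The clusters above the negative controls in any group had medians of -0.0014 and 0.014 without raising. The typical size of a change, the median of absolute log2 changes, was 0.25 and 0.24 for the members, 0.24 and 0.21 for all clusters and 0.29 and 0.26 for the clusters above the negative controls in any group.

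**Figure D1:**
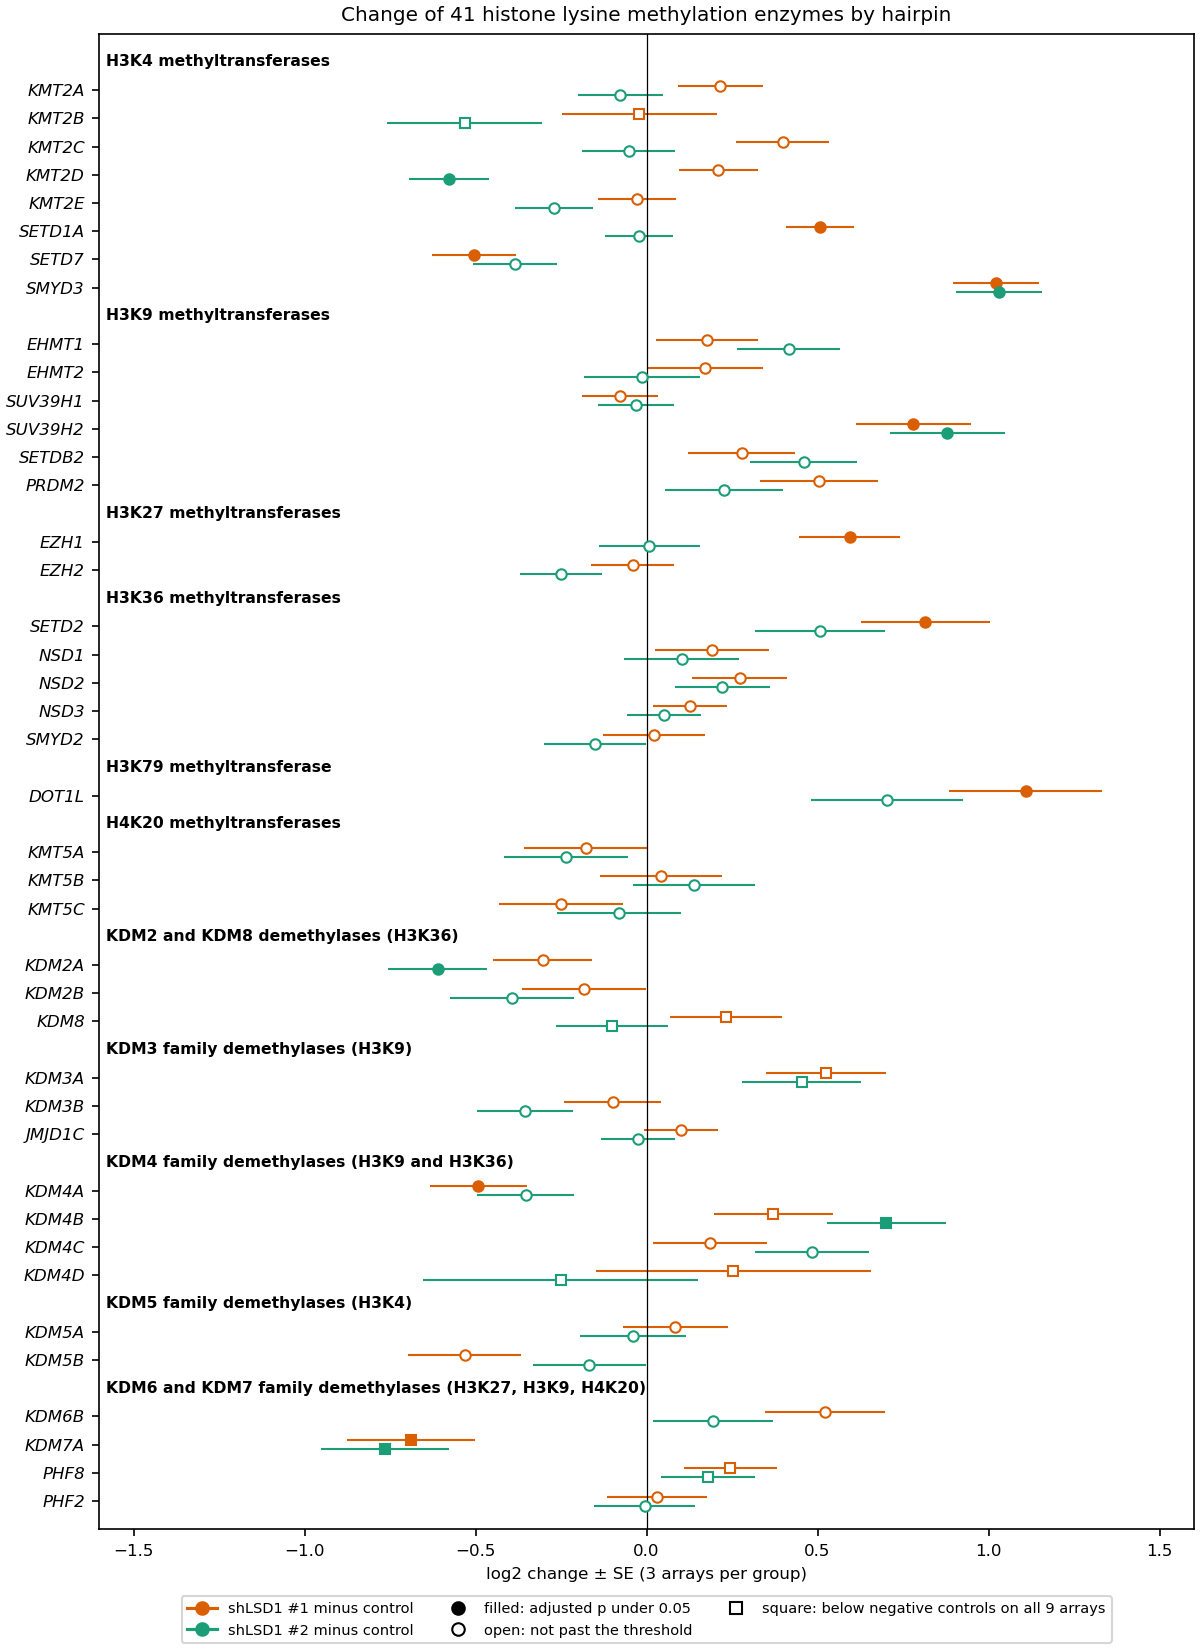
Log2 change against control shRNA with its SE (x axis) for 41 enzymes grouped by substrate (y axis), shLSD1 #1 in orange and shLSD1 #2 in green, 3 arrays per group. Filled symbols passed the test and squares mark the 7 genes below the negative controls on all 9 arrays; SMYD3, at 1.02 and 1.03, and SUV39H2, at 0.78 and 0.88, are filled for both hairpins on the right.

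SMYD3 encodes a SET and MYND domain methyltransferase that was first described as acting on H3K4 and that also methylates cytoplasmic proteins of the MAP kinase cascade. Its signal was 10.61, 11.02 and 10.79 on the control arrays, 11.81, 11.91 and 11.76 on the shLSD1 #1 arrays and 11.84, 11.87 and 11.80 on the shLSD1 #2 arrays. All 6 hairpin arrays lay above all 3 control arrays and close to one another. SMYD3 rose by 1.02 ± 0.13 with shLSD1 #1 (SE, n = 3 per group, 2.03-fold, adjusted p = 0.000633) and by 1.03 ± 0.13 with shLSD1 #2 (2.04-fold, adjusted p = 0.000635). The 2 hairpins differed by -0.0095, with a 95% interval of -0.29 to 0.27. With spike-in class as a blocking factor the change with shLSD1 #1 was 0.98 and its call ended (adjusted p = 0.0896), whereas that with shLSD1 #2 was 1.02 (adjusted p = 0.00408).

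SUV39H2 encodes a writer of H3K9 methylation in constitutive heterochromatin. Its signal was 9.10, 8.74 and 8.83 on the control arrays, 9.95, 9.64 and 9.42 on the shLSD1 #1 arrays and 9.65, 9.97 and 9.69 on the shLSD1 #2 arrays. Again no hairpin array overlapped the control arrays. SUV39H2 rose by 0.78 ± 0.17 with shLSD1 #1 (1.72-fold, adjusted p = 0.0120) and by 0.88 ± 0.17 with shLSD1 #2 (1.84-fold, adjusted p = 0.00761). With spike-in class as a blocking factor the shLSD1 #1 value was 0.48 (adjusted p = 0.512), 1.6 times smaller, and the shLSD1 #2 value was 0.78 (adjusted p = 0.0331). Its close relative SUV39H1, which has the same substrate, had changes of -0.079 and -0.031 (adjusted p = 0.692 and 0.904), with 95% intervals of -0.33 to 0.17 and -0.28 to 0.22.

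The stretches of 250 bases just before the gene starts of SMYD3 and SUV39H2 are shown because these were the members above the negative controls that passed with both hairpins. They come from RefSeq (GRCh38.p14), run 5′ to 3′ on the gene's strand, and carry in capitals every match to GGGCGG, the core of the GC box, on either strand, where adjoining matches run together. The SMYD3 stretch, the first of 2 RefSeq entries, is chr1:246507280-246507529 on the minus strand, and that of SUV39H2 is chr10:14878616-14878865 on the plus strand.
SMYD3: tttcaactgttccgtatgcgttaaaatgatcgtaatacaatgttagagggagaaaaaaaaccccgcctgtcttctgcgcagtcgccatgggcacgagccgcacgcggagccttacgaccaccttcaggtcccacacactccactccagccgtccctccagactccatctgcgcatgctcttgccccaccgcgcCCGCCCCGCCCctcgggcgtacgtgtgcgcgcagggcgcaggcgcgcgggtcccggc
SUV39H2: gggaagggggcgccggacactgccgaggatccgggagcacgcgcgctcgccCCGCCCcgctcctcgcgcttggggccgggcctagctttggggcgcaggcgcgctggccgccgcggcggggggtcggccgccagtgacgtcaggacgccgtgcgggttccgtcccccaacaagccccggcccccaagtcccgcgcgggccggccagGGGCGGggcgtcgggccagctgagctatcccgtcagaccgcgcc
Each stretch held 2 GC box matches. Neither held the CCAAT box, the TATA box word TATAAA or the E2F words TTTCCCGC and TTTGGCGC on either strand. Of the 39 members matched to a RefSeq promoter, 74.4% held GGGCGG, against 42.6% of all 35116 promoter entries. TATAAA occurred in 0 of the 39 and in 10.7% of all entries. CCAAT occurred in 30.8% and 32.0%, and the E2F words in 2.56% and 1.93%. The median count of CG dinucleotides in the 250 bases was 25 in the members and 11 in all entries, which include genes that encode no protein. SUV39H2 had 38 CG dinucleotides and SMYD3 27. A match describes the letters and not a bound site, and changes with the hairpins were not set against it.

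Among the other methyltransferases named for H3K4, the changes were small and went different ways. SETD1A, a catalytic subunit of the COMPASS complexes that trimethylate H3K4 at promoters, had signals of 10.36, 10.40 and 10.37 in control, 10.85, 10.96 and 10.85 in shLSD1 #1 and 10.33, 10.40 and 10.34 in shLSD1 #2 arrays. The shLSD1 #1 arrays stood apart from the other 6, which overlapped. SETD1A rose by 0.51 ± 0.099 with shLSD1 #1 (1.42-fold, adjusted p = 0.00728) and had -0.022 with shLSD1 #2 (adjusted p = 0.925). With spike-in class as a blocking factor the shLSD1 #1 change was 0.45 and did not pass (adjusted p = 0.302).

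SETD7, which monomethylates H3K4 and many proteins that are not histones, had 9.70, 9.61 and 9.40 in control, 9.03, 9.16 and 9.01 in shLSD1 #1 and 9.28, 9.04 and 9.24 in shLSD1 #2 arrays. All hairpin arrays lay below all control arrays. The change was -0.50 ± 0.12 with shLSD1 #1 (1.42-fold lower, adjusted p = 0.0221) and -0.39 ± 0.12 with shLSD1 #2, short of the threshold (adjusted p = 0.0731) but past it without the third of clusters of lowest mean (0.0355). The call ended without control replicate 1 (adjusted p = 0.0799), control replicate 2 (0.0712), shLSD1 #1 replicate 4 (0.0688) or shLSD1 #1 replicate 6 (0.0691), and with spike-in class as a blocking factor the change was -0.29 (0.608).

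KMT2D, the main writer of H3K4 monomethylation at enhancers, had 8.25, 8.60 and 8.39 in control, 8.60, 8.63 and 8.64 in shLSD1 #1 and 7.85, 7.84 and 7.81 in shLSD1 #2 arrays. The shLSD1 #2 arrays lay below all others, while the lowest shLSD1 #1 array and the highest control array read the same to 2 decimals. KMT2D fell with shLSD1 #2, with a change of -0.58 ± 0.12 (1.49-fold lower, adjusted p = 0.00990), and had 0.21 with shLSD1 #1 (adjusted p = 0.273). Among the arrays of high spike-in signal alone the change with shLSD1 #2 was also -0.58 and did not pass (adjusted p = 0.0797). With spike-in class as a blocking factor it was the same -0.58 and passed (adjusted p = 0.0332). Its close relative KMT2C had changes of 0.40 and -0.052 (adjusted p = 0.0792 and 0.860), of which the first passed without the third of clusters of lowest mean (0.0424). KMT2A, the founding mixed-lineage leukaemia gene, had 0.22 and -0.077, and KMT2E, a relative thought to lack catalytic activity, had -0.028 and -0.27.

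Of the H3K9 methyltransferases other than SUV39H2, no gene passed. EHMT1, which forms the G9a-GLP pair that writes H3K9 methylation in euchromatin, had changes of 0.18 and 0.42 (adjusted p = 0.485 and 0.109), and its partner EHMT2 had 0.17 and -0.014. PRDM2 had 0.50 and 0.23, of which the first passed with a trended robust prior (adjusted p = 0.0371), without the third of clusters of lowest mean (0.0482), without shLSD1 #1 replicate 5 (0.0472) and without shLSD1 #2 replicate 8 (0.0471). SETDB2, below the negative controls on all control arrays, had fitted changes of 0.28 and 0.46.

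EZH1 and EZH2 are the alternative catalytic subunits of the Polycomb repressive complex PRC2, which writes H3K27 methylation. EZH1 had 7.17, 7.45 and 6.87 in control, 7.72, 7.86 and 7.70 in shLSD1 #1 and 7.18, 7.20 and 7.14 in shLSD1 #2 arrays. The shLSD1 #1 arrays lay above all others, and the control arrays all lay below the negative controls. EZH1 was at least 1.28-fold higher with shLSD1 #1, counting the control group at the mean of its negative control percentiles (fitted change 0.59 ± 0.15, adjusted p = 0.0240), and had 0.0078 with shLSD1 #2 (adjusted p = 0.984). The call ended without control replicate 1 (0.0654), control replicate 3 (0.0706) or shLSD1 #1 replicate 4 (0.0593), 5 (0.0689) or 6 (0.0507), in a fit of only the groups compared (0.0555) and with spike-in class as a blocking factor (0.411). EZH2, the form that predominates in dividing cells, had changes of -0.040 ± 0.12 and -0.25 ± 0.12 (adjusted p = 0.862 and 0.232), with 95% intervals of -0.31 to 0.23 and -0.52 to 0.021.

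SETD2, the enzyme that trimethylates H3K36 behind elongating RNA polymerase, had 8.23, 7.997 and 7.54 in control, 8.76, 8.95 and 8.51 in shLSD1 #1 and 8.51, 8.26 and 8.52 in shLSD1 #2 arrays. Both sets of hairpin arrays lay above the control arrays, the nearest pair by a narrow margin. SETD2 rose by 0.82 ± 0.19 with shLSD1 #1 (1.76-fold, adjusted p = 0.0173) and had 0.51 ± 0.19 with shLSD1 #2 (adjusted p = 0.121). The call ended without shLSD1 #1 replicate 4 (0.0542) or 5 (0.0574) and with spike-in class as a blocking factor, at a change of 1.07 (0.185). NSD1, NSD2 and NSD3, which add up to a pair of methyl groups to H3K36, had changes between 0.050 and 0.27 over both hairpins, and SMYD2 had 0.021 and -0.15, none of which passed.

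DOT1L is the H3K79 methyltransferase, which acts in transcribed gene bodies. Its signal was 7.02, 7.16 and 7.21 on the control arrays, 8.10, 8.42 and 8.21 on the shLSD1 #1 arrays and 7.82, 7.34 and 8.35 on the shLSD1 #2 arrays. No hairpin array overlapped the control arrays, which all lay below the negative controls, and shLSD1 #2 replicate 8 was the lowest of the hairpin arrays. DOT1L was at least 1.79-fold higher with shLSD1 #1 (fitted change 1.11 ± 0.22, adjusted p = 0.00860). With shLSD1 #2 the bound was 1.35-fold (fitted change 0.70 ± 0.22) and the test was missed (adjusted p = 0.0697). Without shLSD1 #2 replicate 8 the shLSD1 #2 change was 0.95 and passed (0.0142). The arrays of high spike-in signal, which also lack replicate 8, gave the same change (0.0393). The main change passed without the third of clusters of lowest mean (0.0427) and with a trended robust prior (0.0262). With spike-in class as a blocking factor, DOT1L had 1.85 with shLSD1 #1 (0.0204) and 0.95 with shLSD1 #2 (0.0142), the latter again the fit without replicate 8. The H4K20 methyltransferases KMT5A, KMT5B and KMT5C, which serve chromosome compaction and DNA repair, had changes between -0.25 and 0.14, and none passed.

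**Figure D2:**
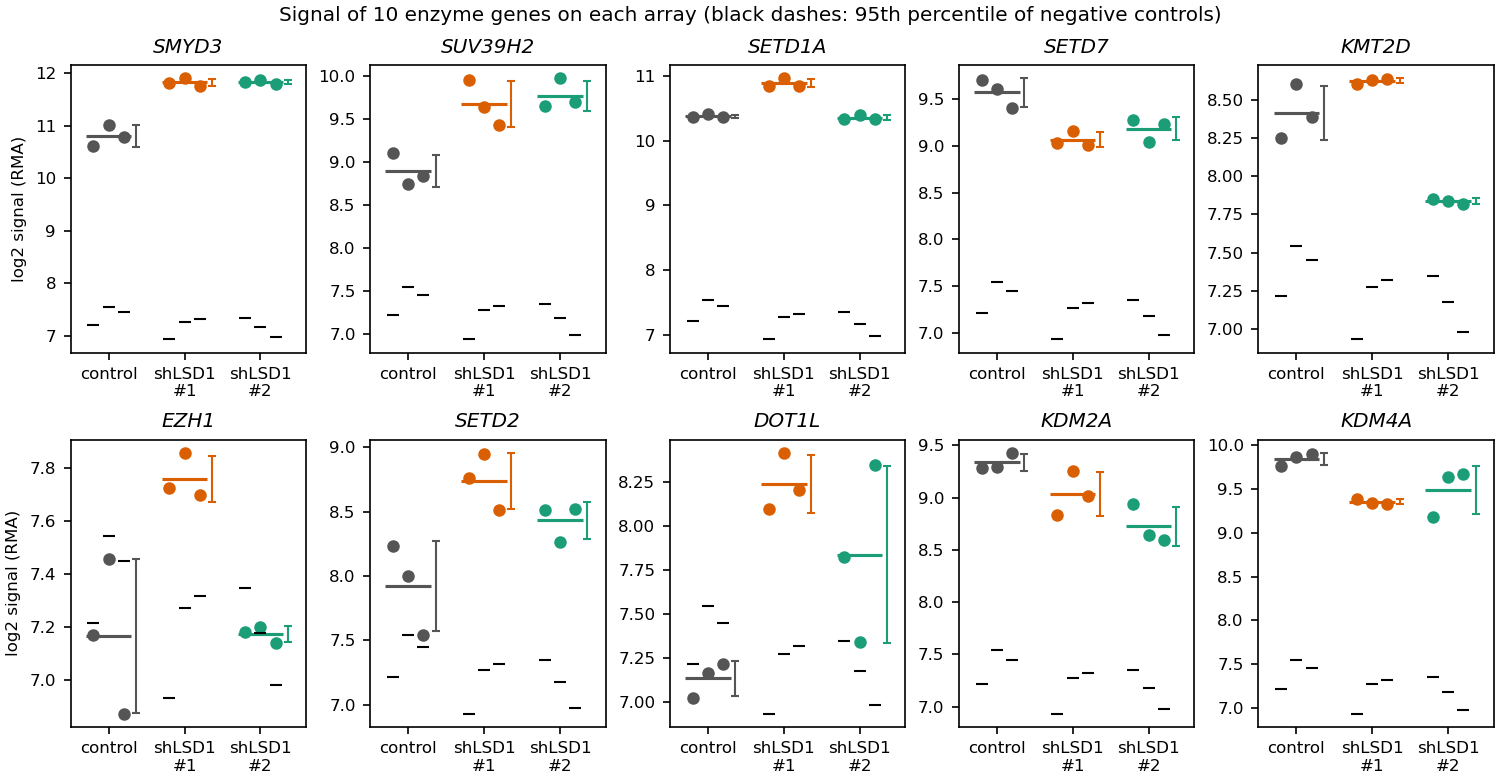
Log2 signal on each array (y axis) for the 10 members past the test with either hairpin that were above the negative controls on at least 1 array, by group (x axis). Points are arrays, bars are means with SD beside them (n = 3), and black dashes give the 95th percentile of the negative controls on each array; for SMYD3 the 6 hairpin arrays lie between 11.76 and 11.91 and the control arrays between 10.61 and 11.02.

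Of the 16 JmjC demethylases, 0 were higher and 2 lower with shLSD1 #1, and 1 was higher and 2 lower with shLSD1 #2 (limma, adjusted p under 0.05). At an unadjusted p under 0.05, 2 were higher and 3 lower with shLSD1 #1, and 3 were higher and 4 lower with shLSD1 #2, where 29.1% and 26.0% of all clusters were past that level in either direction. The calls on KDM4B (higher) and KDM7A (lower) concern signals below the negative controls. This leaves, among the 10 demethylases above the negative controls on any array, KDM4A lower with shLSD1 #1 and KDM2A lower with shLSD1 #2. That is 10% with each hairpin, where 28.6% and 24.4% of the clusters above the negative controls in any group were called.

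The KDM5 demethylases, which share H3K4 with LSD1, did not pass. KDM5B, abundant in many tumours, had 11.78, 11.85 and 11.75 in control, 10.93, 11.57 and 11.27 in shLSD1 #1 and 11.48, 11.59 and 11.80 in shLSD1 #2 arrays. The shLSD1 #1 arrays lay below the control arrays and spread widely, and the shLSD1 #2 arrays overlapped the control arrays. Its changes were -0.53 ± 0.17 and -0.17 ± 0.17 (adjusted p = 0.0579 and 0.595). The shLSD1 #1 change passed after subtraction of array medians (0.0494), with cyclic loess (0.0448), without the third of clusters of lowest mean (0.0326), with a trended robust prior (0.00620), with array weights (0.0337) and without shLSD1 #1 replicate 5 (0.0198). KDM5A had 0.084 ± 0.15 and -0.040 ± 0.15 (adjusted p = 0.765 and 0.910). The further relative KDM5C had -0.071 and -0.24 (adjusted p = 0.717 and 0.204).

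KDM4A removes methyl groups from trimethylated H3K9 and H3K36. Its signal was 9.77, 9.87 and 9.90 on the control arrays, 9.39, 9.34 and 9.33 on the shLSD1 #1 arrays and 9.18, 9.63 and 9.67 on the shLSD1 #2 arrays. All hairpin arrays lay below the control arrays. The change was -0.49 ± 0.14 with shLSD1 #1 (1.41-fold lower, adjusted p = 0.0444) and -0.35 ± 0.14 with shLSD1 #2 (adjusted p = 0.150). This call was close to the threshold and ended without control replicate 1 (0.0786), 2 (0.115) or 3 (0.119), shLSD1 #1 replicate 4 (0.0944), 5 (0.0911) or 6 (0.109) or shLSD1 #2 replicate 8 (0.0512), and with spike-in class as a blocking factor, at -0.71 (0.237). KDM4C, a relative, had 0.18 and 0.48 (adjusted p = 0.514 and 0.0952).

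KDM2A, an H3K36 demethylase that binds unmethylated CpG islands, had 9.29, 9.29 and 9.43 in control, 8.83, 9.25 and 9.01 in shLSD1 #1 and 8.94, 8.64 and 8.59 in shLSD1 #2 arrays. All hairpin arrays were lower than the control arrays. KDM2A fell with shLSD1 #2, with a change of -0.61 ± 0.15 (1.53-fold lower, adjusted p = 0.0220), and had -0.30 ± 0.15 with shLSD1 #1 (adjusted p = 0.201). The call ended without control replicate 1 (0.0550), 2 (0.0562) or 3 (0.0768) or shLSD1 #2 replicate 8 (0.0761) or 9 (0.0689), with spike-in class as a blocking factor (0.0761) and among the arrays of high spike-in signal (0.0884). KDM2B, which brings a Polycomb complex to CpG islands, had -0.18 and -0.39 (adjusted p = 0.555 and 0.206).

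The H3K27 demethylase KDM6B had 9.16, 9.31 and 9.14 in control, 9.66, 9.62 and 9.88 in shLSD1 #1 and 9.58, 8.98 and 9.62 in shLSD1 #2 arrays. The shLSD1 #1 arrays lay above the control arrays, and shLSD1 #2 replicate 8 lay below them. Its changes were 0.52 ± 0.18 and 0.19 ± 0.18 (adjusted p = 0.0765 and 0.556). The first passed with a trended robust prior (0.0256), in a fit of only the groups compared (0.0346), without the third of clusters of lowest mean (0.0452), without shLSD1 #2 replicate 8 (0.0207) and with spike-in class as a blocking factor, where it was 1.14 (0.0393). Its relative KDM6A is described with the partners below. The H3K9 demethylases KDM3B and JMJD1C had changes between -0.36 and 0.10, and PHF2 had 0.031 and -0.0060. In total 29 members passed with neither hairpin. The 24 of them above the negative controls on at least 1 array had changes between -0.53 and 0.52 with shLSD1 #1 and between -0.39 and 0.48 with shLSD1 #2.

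Counting arrays without a test, 16 of the 41 members (39.0%) had all shLSD1 #1 arrays above all control arrays and 5 (12.2%) had them all below, where 18.2% and 16.8% of all clusters did. With shLSD1 #2 the members numbered 9 (22.0%) above and 8 (19.5%) below, against 16.8% and 15.3%. Of the members, 34 were above the negative controls in any group, against 9827 of the 21448 clusters. The shares among those clusters were not counted. The mean log2 signal over the 41 members was 8.78 to 8.80 on the control arrays, 8.90 to 9.01 on the shLSD1 #1 arrays and 8.76 to 8.88 on the shLSD1 #2 arrays. The spike-in class moves with shLSD1 #1 here too, and its part in this shift was not tested beyond the block fit, in which the members' median changes were 0.19 and -0.0054.

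No member differed between the 2 hairpins at the adjusted threshold, nor did any other cluster (limma, 0 of 21448). The difference, shLSD1 #1 minus shLSD1 #2, was 0.79 ± 0.12 for KMT2D (unadjusted p = 6.15e-05, adjusted p = 0.446), 0.59 ± 0.15 for EZH1, 0.53 ± 0.099 for SETD1A, 0.45 ± 0.14 for KMT2C and 0.29 ± 0.12 for KMT2A. With KMT2B, whose signal lay below the negative controls, these were the 6 members with an unadjusted p under 0.05, a share of 14.6%, all with the higher signal in shLSD1 #1, where 7.87% of all clusters were past that level, 4.08% higher and 3.79% lower. Of the 8 genes listed as H3K4 methyltransferases, 5 were among these 6 members, KMT2B included. At the same unadjusted level, 4.51% of the clusters above the negative controls in any group were higher and 4.83% lower. With a trended robust prior KMT2D and SETD1A passed the adjusted threshold (adjusted p = 0.0472 each), among 42 clusters on the array. Of the 34 members above the negative controls on at least 1 array, 33 had a 95% interval that excluded a 2-fold difference between the hairpins, the exception being KMT2D.

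**Figure D3:**
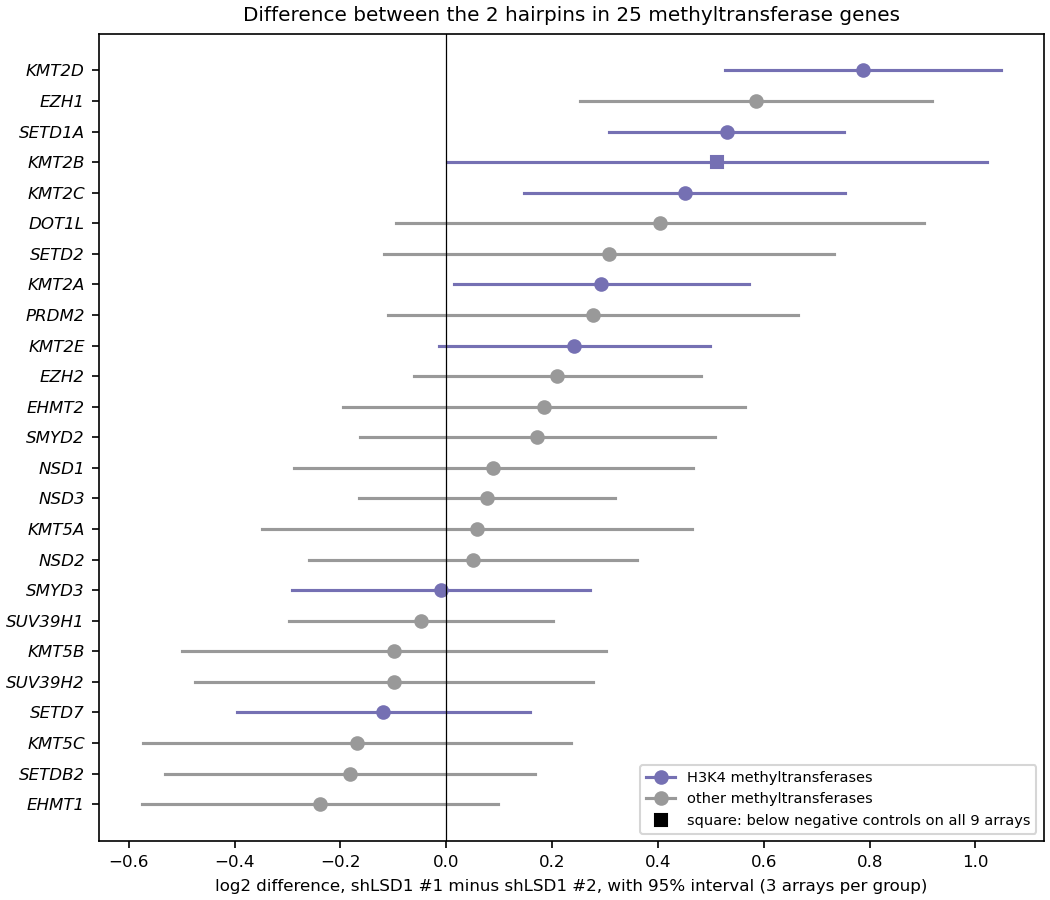
Log2 difference between the hairpins, shLSD1 #1 minus shLSD1 #2, with its 95% interval (x axis) for 25 methyltransferase genes ordered by the difference (y axis), 3 arrays per group. H3K4 methyltransferases are violet; KMT2D lies farthest right at 0.79, and SMYD3 lies at -0.0095.

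The enzymes work in complexes, and the partner genes were taken from 5 lists with 69 genes, 65 of them on the array. Of the 65, 15 were higher and 4 lower with shLSD1 #1, and 12 higher and 4 lower with shLSD1 #2 (29.2% and 24.6% called). All clusters had 15.8% and 13.2% called. The clusters above the negative controls in any group, here called detected clusters, had 28.6% and 24.4%. Of the 65 partners, 52 were above the negative controls in any group. The partners' shares are over all 65 and so are not like for like with those of detected clusters. In the list of COMPASS subunits, which hold and activate the SETD1 and KMT2 enzymes, 5 of 12 were higher and 0 lower with shLSD1 #1 and 3 higher and 0 lower with shLSD1 #2, with medians of 0.29 and 0.23. These are 41.7% and 25% called, against 28.6% and 24.4% of detected clusters, the second near its background. At an unadjusted p under 0.05 the list had 6 and 5 higher and again 0 lower. Of 9827 detected clusters, 2207 and 2093 were higher and 2251 and 1959 lower at that level. CXXC1, which recruits the SETD1 complexes to CpG islands, rose from a control mean of 9.85 ± 0.25 to 10.70 ± 0.18 with shLSD1 #1 and 10.80 ± 0.11 with shLSD1 #2 (SD, n = 3, changes of 0.85 and 0.95, adjusted p = 0.00516 and 0.00338). MEN1, the menin tumour suppressor that tethers KMT2A and KMT2B, rose by 0.66 ± 0.12 and 0.67 ± 0.12 (adjusted p = 0.00468 and 0.00510). NCOA6, a subunit of the KMT2C and KMT2D complexes, rose by 0.92 with shLSD1 #1 (adjusted p = 0.00219) and had 0.48 with shLSD1 #2 (0.0532). HCFC1, a chromatin adaptor shared with the SETD1 complexes, rose by 0.86 with shLSD1 #1 (0.00168) and had 0.38 with shLSD1 #2 (0.0822).

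In the PRC2 list, 4 of 9 genes were higher with shLSD1 #1 and 3 with shLSD1 #2, and 0 were lower, also at an unadjusted p under 0.05, where 4 and 4 were higher. The called shares were 44.4% and 33.3% of all 9 genes, 7 of which were above the negative controls in any group. Detected clusters had 28.6% and 24.4%. At the unadjusted level, 2207 and 2093 of 9827 detected clusters were higher and 2251 and 1959 lower. MTF2, an accessory subunit that binds CpG islands, rose by 0.91 ± 0.14 and 0.76 ± 0.14 (adjusted p = 0.00214 and 0.00619), the second call ending among the arrays of high spike-in signal (0.0662). SUZ12, a core subunit, rose by 0.78 with shLSD1 #1 (0.0132) and had 0.53 with shLSD1 #2 (0.0729). The histone chaperones RBBP4 and RBBP7, which also sit in other chromatin complexes, rose by 0.57 and 0.72 (0.0343 and 0.0138) and by 0.48 and 0.42 (0.0195 and 0.0403). The shLSD1 #1 call of SUZ12 ended without control replicate 2 (0.0533). That of RBBP4 ended without control replicate 1 (0.109), 2 (0.0737) or 3 (0.0706), shLSD1 #1 replicate 4 (0.0639) or 5 (0.0816) or shLSD1 #2 replicate 7 (0.0512), and its shLSD1 #2 call without control replicate 1 (0.0546). RBBP7 lost its shLSD1 #1 call without control replicate 1 (0.0564) or 3 (0.0696) or shLSD1 #1 replicate 5 (0.0573). Its shLSD1 #2 call ended when any control array was left out (0.0714 to 0.124), without shLSD1 #1 replicate 4 (0.0572) or 6 (0.0540) and without shLSD1 #2 replicate 7 (0.129) or 8 (0.116).

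Among readers and partners of H3K9 methylation, 4 of 9 were higher with shLSD1 #1 and 3 with shLSD1 #2. At either the adjusted or the unadjusted threshold 0 were lower. The called shares were 44.4% and 33.3% of all 9 genes, 8 of which were above the negative controls in any group. Detected clusters had 28.6% and 24.4%. At the unadjusted threshold, 2251 and 1959 of 9827 detected clusters were lower and 2207 and 2093 higher. CBX1, which encodes the heterochromatin protein HP1 beta, rose from 10.68 ± 0.090 in control to 11.78 ± 0.16 and 11.41 ± 0.014 (SD, n = 3, changes of 1.10 and 0.73, adjusted p = 0.000277 and 0.00305). UHRF1, which couples H3K9 methylation to DNA methylation in S phase, rose by 0.72 and 0.51 (0.00580 and 0.0351). TRIM28, the corepressor of zinc finger proteins, rose by 0.40 and 0.41 (0.0385 and 0.0406), and WIZ, a partner of EHMT1 and EHMT2, rose by 0.46 with shLSD1 #1 (0.0431) and had -0.023 with shLSD1 #2. The shLSD1 #2 call of UHRF1 ended without control replicate 1 (0.0722), 2 (0.101) or 3 (0.100), shLSD1 #1 replicate 4 (0.0524) or 6 (0.0501) or shLSD1 #2 replicate 7 (0.109) or 8 (0.0855). The calls of TRIM28 and WIZ were near the threshold, and leaving out any 1 control array ended them (0.0785 to 0.127). Those with shLSD1 #1 also ended, for both genes, without shLSD1 #1 replicate 4 (0.0777 and 0.0642), shLSD1 #1 replicate 6 (0.122 and 0.130) or shLSD1 #2 replicate 7 (0.0517 and 0.0643), for WIZ without shLSD1 #1 replicate 5 (0.0819) and for TRIM28 without shLSD1 #2 replicate 9 (0.0522). The shLSD1 #2 call of TRIM28 ended without shLSD1 #1 replicate 4 (0.0582) or shLSD1 #2 replicate 7 (0.131), 8 (0.0547) or 9 (0.0915), and with cyclic loess (0.0552). WIZ also lost its shLSD1 #1 call after subtraction of array medians (0.0533).

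Of 22 further relatives of the enzymes, 1 was higher and 1 lower with shLSD1 #1 and 2 were higher and 1 lower with shLSD1 #2 (9.09% and 13.6% called). All clusters had 15.8% and 13.2% called, and detected clusters 28.6% and 24.4%. Of these 22 relatives, 14 were above the negative controls in any group. KDM6A, the H3K27 demethylase related to KDM6B, had a control mean of 9.25 ± 0.22 and means of 8.53 ± 0.21 with shLSD1 #1 and 8.48 ± 0.11 with shLSD1 #2 (SD, n = 3), changes of -0.72 ± 0.16 and -0.78 ± 0.16 (adjusted p = 0.0121 and 0.00947). METTL21A, which methylates HSP70 chaperones and not histones, rose by 1.06 with each hairpin (adjusted p = 0.000323 and 0.000343). EEF1AKMT1, which methylates the translation factor eEF1A, rose by 0.63 with shLSD1 #2 (0.0232) and had 0.30 with shLSD1 #1, and its call ended without control replicate 1 (0.0823) or 3 (0.0658) or shLSD1 #2 replicate 7 (0.0839) or 9 (0.0518). SETDB1, a writer of H3K9 trimethylation, had -0.26 and -0.22 (0.189 and 0.293).

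The supply of the methyl donor and of 2-oxoglutarate formed the last list, in which 1 of 13 genes was higher and 3 lower with each hairpin. This is 30.8% of all 13 genes, 11 of which were above the negative controls in any group. Detected clusters had 28.6% and 24.4%. IDH2, the mitochondrial isocitrate dehydrogenase that makes 2-oxoglutarate, rose from 11.75 ± 0.075 in control to 13.23 ± 0.014 and 12.99 ± 0.11 (SD, n = 3, changes of 1.49 and 1.24, adjusted p = 2.69e-05 and 7.32e-05). Its cytosolic relative IDH1 had -0.63 and -0.40 (0.00308 and 0.0325). NNMT, which spends methyl groups on nicotinamide, had means of 9.09 ± 0.010, 7.28 ± 0.20 and 7.34 ± 0.19, changes of -1.82 and -1.76 (4.26e-05 and 4.80e-05). Most NNMT hairpin signals lay close to the negative control level. That of shLSD1 #2 replicate 7 lay below it (7.20 against 7.35), so the size of the fall is uncertain. AHCYL1, a relative of the hydrolase that clears S-adenosylhomocysteine, had -0.54 and -0.60 (0.00523 and 0.00338), while MAT2A, which makes S-adenosylmethionine, had 0.026 and 0.19 (0.914 and 0.385). The shLSD1 #2 call of IDH1 ended when any 1 control or shLSD1 #2 array was left out (0.0682 to 0.109). With spike-in class as a blocking factor, the shLSD1 #1 calls of NCOA6, METTL21A, IDH2 and NNMT stayed past the threshold, and those of the other 15 partner genes ended, at adjusted p between 0.0542 and 0.818. The shLSD1 #2 calls of ASH2L (0.0583), RBBP7 (0.116), TRIM28 (0.0547), UHRF1 (0.0855) and IDH1 (0.0770) ended there too, and among the arrays of high spike-in signal (0.0777 to 0.161). In a fit of only the groups compared, the shLSD1 #1 calls of RBBP4 (0.0593) and TRIM28 (0.0637) ended. So did the shLSD1 #2 calls of RBBP7 (0.0663), TRIM28 (0.0567), UHRF1 (0.0727) and IDH1 (0.0573). ASH2L, a core COMPASS subunit, was named here after its values were seen.

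**Figure D4:**
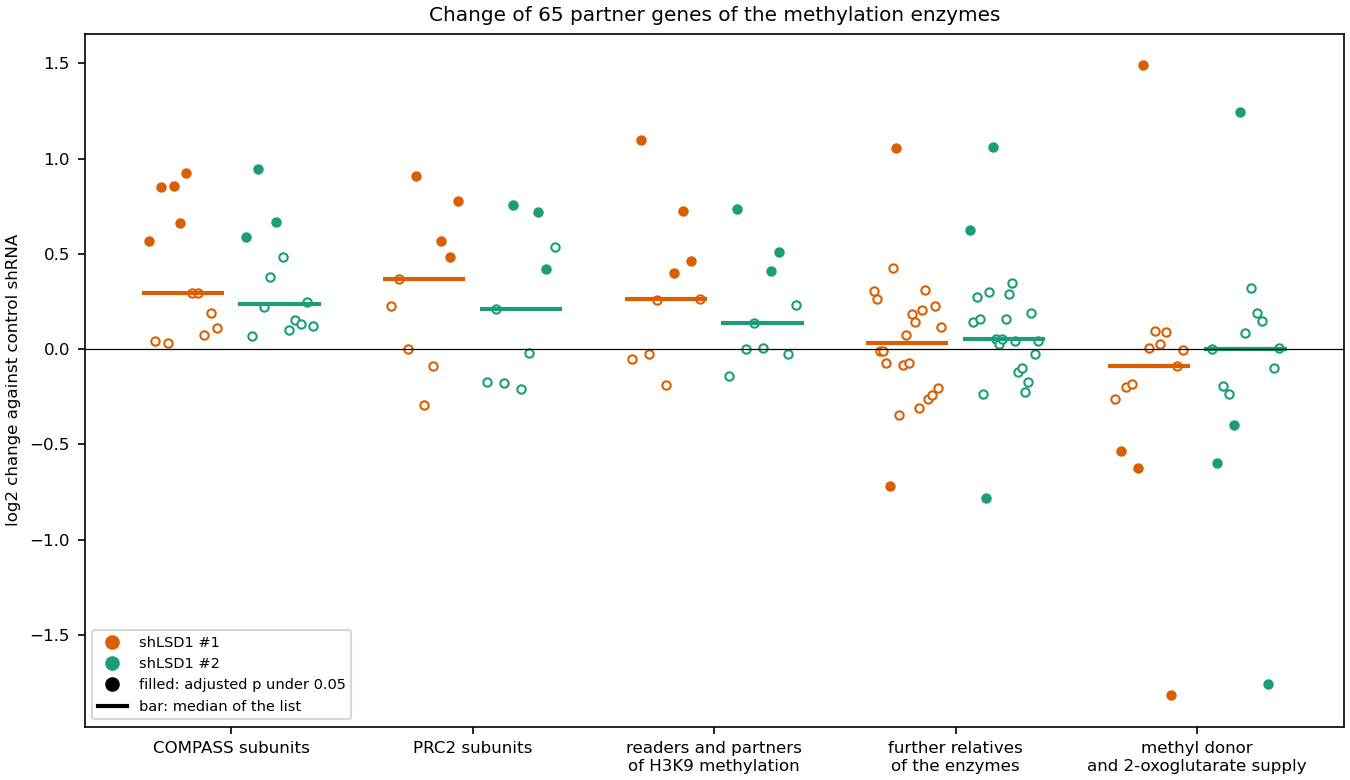
Log2 change against control shRNA (y axis) of 65 partner genes in 5 lists (x axis), shLSD1 #1 in orange and shLSD1 #2 in green, each point 1 gene from 3 arrays per group, filled where the test was passed, with bars at list medians. IDH2, at 1.49 and 1.24, and NNMT, at -1.82 and -1.76, are the extremes, both in the list of methyl donor and 2-oxoglutarate supply.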

How the data were processed

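Total RNA (100 ng) of 9 ACC-MESO-1 samples was labelled and hybridised to Clariom S arrays. The deposited values are log2 signals, which the authors summarised by RMA in Affymetrix Expression Console 1.4, per the submitters' processing notes. The base of the log was taken from the RMA default, while the sources used here give no library files, options or genome build. Of 24351 values per array, 2903 belonged to control probe sets, and all 21448 others were tested without a filter. Symbols came from GEO's platform annotation (17709 clusters with 1 symbol, 3739 with none).

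limma 3.58.1 (R 4.3.3) fitted the 3 groups together with lmFit and eBayes. Two-sided p-values were adjusted by Benjamini-Hochberg over all clusters at 0.05, and ± after a change is its SE. The procedure was tested on simulated data, and no result of that test is given here. The members, partner lists, naming rule and alternatives were chosen with earlier results of these data known. Members past the test are named with all their values, and up to 4 called genes per partner list by mean absolute change. MAT2A, KDM5C and SETDB1 were named after their values were seen. Where all arrays of a group lay below the negative controls, a lower bound on the fold used the mean of that group's percentiles instead. The number of arrays limits the precision. Promoter sequences are from RefSeq, with the first entry used where a gene has several. Plots were drawn with matplotlib 3.10.9.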

Additional observations from a re-analysis of the deposited data

Results flagged for a closer look

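KMT2D was singled out because its shLSD1 #2 arrays all lay below the 3 control arrays and its shLSD1 #1 arrays all lay at or above the highest of them. The fall with shLSD1 #2 passed the test, whereas the shLSD1 #1 value of 0.21 (95% interval -0.051 to 0.47) did not (limma, adjusted p = 0.273), and its lowest array equalled the highest control array to 2 decimals. The difference between the hairpins was 0.79 on the log2 scale (95% interval 0.53 to 1.05), and limma's test of that difference over all clusters was not passed (adjusted p = 0.446). Groups of 3 arrays are too small for the outlier test, so none was run.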

How the results depend on the processing

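With shLSD1 #1, the 9 members called (6 higher, 3 lower) became 14 (10 higher) without the third of clusters of lowest mean. There 4114 of 14299 clusters were called, where the main fit called 3385 of 21448. That fit has fewer clusters to adjust over and also another estimate of the spread. The SE of SETD1A, for example, was 0.0866 in place of 0.0989. With spike-in class as a blocking factor, 2 were called (2 higher, 0 lower), and these were DOT1L and KDM6B. With shLSD1 #2, the 6 members called became 3 (0 lower) among the arrays of high spike-in signal. Between the hairpins 0 members became 2, both higher with shLSD1 #1, with a trended robust prior. When single arrays were left out, the shLSD1 #1 count ran from 4 to 10 (4 to 8 higher, 0 to 3 lower), the shLSD1 #2 count from 3 to 6 (2 to 4 higher, 1 to 3 lower) and the count between hairpins stayed at 0. The lowest shLSD1 #1 counts came without shLSD1 #1 replicate 4 (4), shLSD1 #1 replicate 6 (5) and control replicate 1 (5), and the lowest shLSD1 #2 counts without control replicate 3 (3) and shLSD1 #2 replicate 9 (3). Neither array weights, cyclic loess, median subtraction, quantile normalization applied again nor a fit of only the groups compared moved a count of called members by more than 1.5 times. In no alternative did a called member change sign. Of the genes below the negative controls, KDM7A lost its shLSD1 #1 call without control replicate 1 (adjusted p = 0.111) or 3 (0.0935) or any shLSD1 #1 array (0.0763 to 0.0900), and its shLSD1 #2 call without control replicate 1 (0.0886) or 3 (0.0766) or shLSD1 #2 replicate 7 (0.0506) or 9 (0.0504). Its shLSD1 #1 call also ended with spike-in class as a blocking factor (0.116). Its shLSD1 #2 call also ended in a fit of only the groups compared and among the arrays of high spike-in signal (0.0615). KDM4B lost its shLSD1 #2 call without control replicate 2 (0.0804) or 3 (0.0839) or shLSD1 #2 replicate 8 (0.0836) or 9 (0.0758). That call also ended in a fit of only the groups compared, with spike-in class as a blocking factor (0.0836) and among the arrays of high spike-in signal (0.14). KDM3A passed with both hairpins without shLSD1 #2 replicate 7 (0.0267 and 0.0245). The cause of these changes was not tested. No paired analysis was possible because the arrays are numbered 1 to 9 and the groups share no replicate number.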
